A study of Mus musculus with 18 samples.

Results

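Laminin chains and integrin subunits were followed through the differentiation of 3 mouse ESC lines. The 37 probe sets described here were taken by a rule on gene symbols from the 35512 probe sets of the array. These families, and the gene lists set beside them below, were chosen with earlier results of these data known. They carry a single symbol that names an integrin alpha or beta subunit (27 probe sets, 26 genes) or a laminin alpha, beta or gamma chain (10 probe sets, 10 genes). *Itgad* has 2 probe sets, and the one with the higher mean signal is described. Probe sets with several symbols were left out, among them those that pair *Itgam* with *Rpl35*.

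Laminins are trimers of an alpha, a beta and a gamma chain that polymerize into the sheet on which a basement membrane is built, together with collagen IV, nidogen and perlecan. Laminin-111, made of the products of *Lama1*, *Lamb1* and *Lamc1*, is a main laminin of the early mouse embryo, and the extraembryonic endoderm secretes it in large amounts. Integrins are pairs of an alpha and a beta subunit that span the cell membrane and tie such matrix, or partner proteins on other cells, to the actin cytoskeleton. In EBs, an outer endoderm layer lays down a basement membrane beneath which the inner cells form an epithelium.

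The wt, *Dnmt1*-/- and TKO lines are all J1 (129Sv/Jae) ESCs. *Dnmt1*-/- cells lack the maintenance DNA methyltransferase, and TKO cells lack Dnmt1, Dnmt3a and Dnmt3b. Each line was sampled as undifferentiated ESCs (day 0) and as EBs grown from hanging drops for 4 or 16 days. Each of these 9 groups has 2 arrays that the labels call biological replicates 1 and 2, and each genotype is 1 line, so differences between lines other than the deleted genes cannot be told apart from the genotype. An EB is a mixture of cell types, and in such bulk RNA fewer cells of a type and less RNA per cell cannot be told apart.

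All levels are log2 signals of a probe set made by the authors with RMA, and 1 unit is a 2-fold difference. Brightness also depends on the probes, so levels were compared between arrays and never between genes. Changes are log2 fold changes estimated with limma from 1 linear model of the 9 groups over the 18 arrays, with their standard error (SE). A probe set rose, fell or was called higher or lower where the change was at least 2-fold and the adjusted p was under 0.05. The adjusted p is the Benjamini-Hochberg false discovery rate of that comparison over all 35512 probe sets. With 2 arrays a group, these p-values rest on the spread between duplicates.

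The lowest signal was 1.21 and the highest 14.01, medians of single arrays lay between 5.77 and 5.90, and duplicate arrays had r = 0.981 to 0.991 across probe sets, which are not independent replicates. *Dnmt1* signals were 9.16 to 9.77 on wt arrays and 8.40 to 8.86 on arrays of both mutants. In TKO cells *Dnmt3a* gave 6.45 to 7.65, against 7.96 to 9.45 in both other lines. *Dnmt3b* gave 7.33 and 7.45 in TKO and 9.31 or more in the other ESCs, but 8.88 and 8.58 in TKO and 9.04 to 9.85 in the other EBs of day 4, and at day 16 TKO (7.52 and 7.71) lay above wt (7.16 and 7.41) and below *Dnmt1*-/- (8.85 and 8.87). The position of these probe sets relative to each deletion was not analysed here, so *Dnmt3b* in particular is no check of the labels. The mean level of 8 ESC pluripotency genes, *Pou5f1* among them, was 9.90 to 10.44 in the ESC groups. It was 7.09 to 7.49 in wt, 8.64 to 8.85 in *Dnmt1*-/- and 9.60 to 9.63 in TKO EBs of day 16. The 6 probe sets of *Itga11*, *Itgae*, *Itgam*, *Itgax*, *Itgb6* and *Lama2* lay among the dimmest 30% of the array by mean signal, and 31 of 37 lay above that line.

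In ESCs, limma called none of the 37 probe sets different between genotypes. That was 0 in *Dnmt1*-/- against wt (0.355% of all probe sets were called), 0 in TKO against wt (0.304%) and 0 in TKO against *Dnmt1*-/- (0.00563%). At an unadjusted p under 0.05, 3, 5 and 0 differed. The replicate block and a false discovery rate pooled over the comparisons each called 1 in each mutant against wt.

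Many of these genes rose late in wt EBs and fewer did so in the mutants. From day 0 to 4, 6 of 37 probe sets changed in wt (3 up, 3 down, 4.51% of all probe sets called), 6 in *Dnmt1*-/- (2 up, 4 down, 4.61%) and 4 in TKO (3 up, 1 down, 3.17%). From day 4 to 16, 17 rose and 0 fell in wt, where 3.94% of all probe sets rose and 5.87% were called. Over the same interval 8 rose and 0 fell in *Dnmt1*-/- EBs (2.39% rose, 2.70% called), and 1 rose and 0 fell in TKO EBs (0.794% rose, 1.41% called). From day 0 to 16, 16 changed in wt (15 up), 11 in *Dnmt1*-/- (10 up) and 2 in TKO (1 up). Of all probe sets, 10.8%, 6.90% and 2.50% were called in either direction over these days. The median change of the 10 laminin probe sets from day 4 to 16 was 1.11 in wt, 0.63 with loss of Dnmt1 and 0.19 in TKO, and that of the 27 integrin probe sets 0.59, 0.21 and 0.06. Over all probe sets the median was −0.08, −0.07 and 0.01.

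Between genotypes, the calls lay mostly at day 16 and all of these were lower in the mutant. At day 4, 1 was called in *Dnmt1*-/- against wt, lower (0.738% called, 0.0253% lower), 5 in TKO against wt (3 higher, 2 lower, 2.92%) and 2 in TKO against *Dnmt1*-/-, both higher (0.848% called, 0.549% higher). At day 16, 5 were lower in *Dnmt1*-/- than in wt (2.89% called, 1.36% lower), 11 were lower in TKO than in wt (5.83% called, 3.43% lower) and 3 were lower in TKO than in *Dnmt1*-/- (1.07% called, 0.941% lower). The median difference of TKO from wt EBs of day 16 was −0.91 over the laminin and −0.61 over the integrin probe sets, beside 0.05 over all probe sets. These comparisons share the wt arrays, so the counts against wt are not independent of each other.

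The change over time was itself compared between genotypes as a difference of differences. Changes keep their sign here, so a change called lower can be a smaller rise, no rise or a fall against a rise. From day 0 to 4, 0 probe sets differed between *Dnmt1*-/- and wt (0.00% of all), 4 between TKO and wt (1.38%) and 0 between TKO and *Dnmt1*-/- (0.0310%). At an unadjusted p under 0.05 the pairs with 0 had 4 and 6. From day 4 to 16 the counts were 0 (0.884%), 9, all lower in TKO (2.89% called, 2.24% lower), and 1, lower (0.163% called, 0.158% lower). The pair with 0 had 10 at an unadjusted p under 0.05. For day 0 to 16 the counts were 1, lower (1.37% called, 0.749% lower), 6, lower (3.91% called, 2.22% lower), and 0 (0.152%), with 11 at an unadjusted p under 0.05 in the last. Of all 119 calls among the 37 probe sets, 65 held whichever single array was left out and 54 did not. In a fit restricted to the arrays compared, 40 missed the threshold. Calls so lost that are given below are named with the array or the fit.

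**Figure D1:**
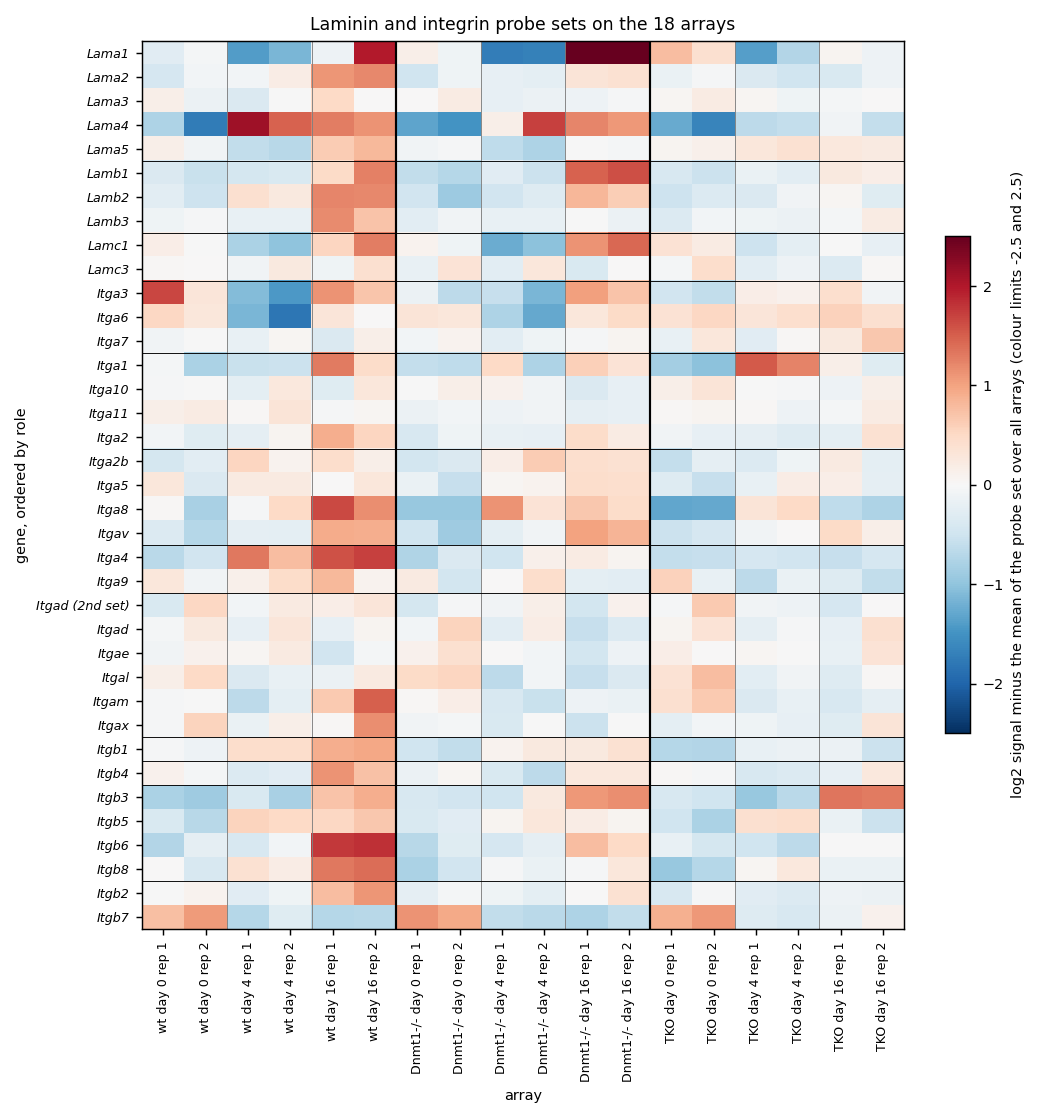
Log2 signal of the 37 laminin and integrin probe sets (rows, ordered by role) on the 18 arrays (columns, by genotype and day), each minus the mean of its probe set over all arrays. The wt arrays of day 16 are the reddest columns, *Lama1* is far above its mean in *Dnmt1*-/- EBs of day 16, and the TKO arrays of day 16 stay pale but for *Itgb3*.

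The promoter sequences of 4 members are shown because the lines differ in DNA methylation, whose target is the CpG dinucleotide. They are *Lamb1*, a chain of laminin-111, *Itgb1*, the beta subunit shared by most matrix-binding integrins, and *Itga4* and *Itga8*, the alpha subunits furthest below wt in TKO EBs of day 16. The bases lie before the annotated gene, at most 250, from the RefSeq promoter windows of GRCm38.p6, 5′ to 3′ on the gene's strand, with every CpG in capitals. The arrays measured RNA, and methylation was not measured here.
*Lamb1*, chr12:31265043-31265145, + strand: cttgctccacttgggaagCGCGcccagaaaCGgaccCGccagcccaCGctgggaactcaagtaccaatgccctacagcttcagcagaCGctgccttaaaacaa
*Itgb1*, chr8:128685404-128685653, + strand: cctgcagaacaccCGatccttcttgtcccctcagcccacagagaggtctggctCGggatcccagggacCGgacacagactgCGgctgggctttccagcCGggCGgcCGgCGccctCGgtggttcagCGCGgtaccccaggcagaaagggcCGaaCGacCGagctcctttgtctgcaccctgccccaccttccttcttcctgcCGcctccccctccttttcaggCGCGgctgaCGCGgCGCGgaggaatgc
*Itga4*, chr2:79255176-79255425, + strand: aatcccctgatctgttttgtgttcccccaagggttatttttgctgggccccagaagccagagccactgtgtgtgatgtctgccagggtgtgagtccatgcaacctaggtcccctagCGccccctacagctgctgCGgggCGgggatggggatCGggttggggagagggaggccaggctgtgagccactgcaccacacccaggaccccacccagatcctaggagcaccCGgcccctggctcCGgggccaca
*Itga8*, chr2:12301986-12302194, − strand: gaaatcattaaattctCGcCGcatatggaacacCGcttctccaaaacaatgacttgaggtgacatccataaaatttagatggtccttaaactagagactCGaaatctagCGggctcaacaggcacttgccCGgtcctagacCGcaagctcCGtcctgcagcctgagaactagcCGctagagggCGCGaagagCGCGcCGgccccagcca
The stretches hold 6 CpG over 103 bases for *Lamb1*, 21 over 250 for *Itgb1*, 6 over 250 for *Itga4* and 14 over 209 for *Itga8*.

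Of the 36 genes, 23 had a RefSeq window of 300 bases, 250 before and 50 after the start, and the windows of 13 genes, *Lama1* and *Lamc1* among them, were not analysed here. Some windows lie inside the annotated gene, wholly for *Lamb3* and *Itgav* and almost wholly for *Lama2*, so not all hold sequence before the gene. CpG counts of the members' first windows had a median of 12, from 1 in *Lama2* to 27 in *Itgb1*. Of these, 15 of 23 reached the median of 7 over all 32851 windows (quartiles 3 and 20). The motif GGGCGG, read on both strands like the others, lay in 11 of 23 members and in 35.7% of all windows. ATTGT lay in 5 (31.0%), AGATAA or TGATAA in 1 (18.6%) and TATAAA in 0 (13.6%). Some members were lower in TKO than in wt EBs of day 16. Their first windows held 1 CpG in *Lama2*, 4 in *Lamb2*, 6 in *Itgam* and 10 in *Itga4*. Those of *Itgb6*, *Itgb8*, *Itga8* and *Itgb1* held 12, 13, 23 and 27, and those of *Itgb2*, *Lama4* and *Lamc1* were not analysed here. A relation of CpG counts to these differences was not tested.

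*Lama1*, the alpha chain of laminin-111, moved further than any other of the 37 probe sets in any of the 18 time and genotype comparisons. Its signals were 7.46 and 7.70 in wt ESCs, 6.36 and 6.61 in wt EBs of day 4, and 7.62 and 9.74 at day 16. In the *Dnmt1*-/- line they were 7.90 and 7.64 at day 0, 6.03 and 6.07 at day 4, and 10.30 and 10.60 at day 16. In TKO cells they were 8.52 and 8.15, then 6.38 and 7.02, then 7.82 and 7.62. All lines dipped at day 4 in these values, and at day 16 both *Dnmt1*-/- arrays lay above both wt arrays, which overlapped with TKO and lay far apart from each other.

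The rise of *Lama1* from day 4 to 16 was 4.40 in *Dnmt1*-/- EBs, a 21.1-fold change (SE 0.48, adjusted p = 0.00018), and 2.19 in wt EBs (SE 0.48, adjusted p = 0.0082). The wt value rested on replicate 2 of day 16, without which it was 1.13, and the call was lost without replicate 1 of day 4 (2.07, adjusted p = 0.058) and in the fit restricted to the arrays compared (adjusted p = 0.14). TKO EBs showed 1.02 (adjusted p = 0.35). At day 16 *Lama1* was lower in TKO than in *Dnmt1*-/- EBs (−2.73, 6.62-fold, SE 0.48, adjusted p = 0.014), and *Dnmt1*-/- differed from wt by 1.77 without a call (adjusted p = 0.051). The call between the mutants was lost without replicate 1 or 2 of *Dnmt1*-/- (−2.88 and −2.58) or replicate 2 of TKO day 16 (−2.63), and with the arrays compared alone (adjusted p = 0.083). Earlier, between day 0 and 4, *Lama1* fell by 1.72 in *Dnmt1*-/- cells (adjusted p = 0.04), a call lost without any array other than those of wt day 16 and TKO day 4 (−1.59 to −1.85, adjusted p of 0.052 to 0.17). It was lost too under the false discovery rate over all comparisons (0.054) and after a further quantile normalization (0.051).

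*Lamb1* and *Lamc1*, the beta and gamma chains that most early laminins share, had the same order of genotype means at day 16 as *Lama1*. Which genotypes overlapped differed between the 3 genes. *Lamb1* gave 9.30 and 9.11 in wt ESCs, 9.23 and 9.28 at day 4, and 10.13 and 10.92 at day 16. In *Dnmt1*-/- cells it gave 9.04 and 8.94, 9.38 and 9.13, and 11.14 and 11.28, and in TKO cells 9.25 and 9.13, 9.50 and 9.39, and 9.91 and 9.82. At day 16 the 3 genotypes did not overlap, with *Dnmt1*-/- highest and TKO lowest. From day 4 to 16 *Lamb1* rose by 1.96 in *Dnmt1*-/- (SE 0.20, adjusted p = 0.00013) and by 1.27 in wt EBs (SE 0.20, adjusted p = 0.0012), while TKO EBs showed 0.42 (adjusted p = 0.37). The wt call was lost without replicate 2 of wt day 16 (0.88), as was that from day 0 to 16 (1.33, and 0.93 without it), and with the arrays compared alone (adjusted p = 0.082). *Lamb1* was lower in TKO than in *Dnmt1*-/- EBs of day 16 (−1.35, SE 0.20, adjusted p = 0.0063), a call lost without *Dnmt1*-/- replicate 1 (−1.42), without TKO replicate 2 (−1.30) and with the arrays compared alone (adjusted p = 0.14).

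*Lamc1* signals were 9.57 and 9.39 in wt ESCs, 8.62 and 8.39 at day 4, and 9.95 and 10.69 at day 16. They were 9.49 and 9.30, 8.16 and 8.37, and 10.52 and 10.84 in *Dnmt1*-/- cells, and 9.76 and 9.60, 8.88 and 9.16, and 9.39 and 9.19 in TKO cells. All genotypes were lowest at day 4, and at day 16 TKO lay below both other genotypes, which overlapped. *Lamc1* rose from day 4 to 16 by 2.41 in *Dnmt1*-/- (SE 0.22, adjusted p = 5.1e-05) and by 1.81 in wt EBs (SE 0.22, adjusted p = 0.00017), and both calls held without any single array. The change in TKO was 0.27 (adjusted p = 0.66), and it differed from that of wt by −1.55 (SE 0.31, adjusted p = 0.017) and from that of *Dnmt1*-/- by −2.15 (SE 0.31, adjusted p = 0.019). The first difference was lost without wt day 4 replicate 2 (−1.43) or replicate 2 of TKO day 4 (−1.41) or day 16 (−1.45). The second was lost without either *Dnmt1*-/- array of day 4 (−2.04 and −2.25), *Dnmt1*-/- day 16 replicate 1 (−2.31), either TKO array of day 4 (−2.28 and −2.01) or TKO day 16 replicate 2 (−2.05). Both were lost with the arrays compared alone (adjusted p = 0.11 and 0.076).

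At day 16 itself *Lamc1* was lower in TKO than in wt EBs (−1.03, SE 0.22, adjusted p = 0.0074) and than in *Dnmt1*-/- EBs (−1.39, SE 0.22, adjusted p = 0.0082). The difference from wt was −0.66 without wt replicate 2 and −0.93 without TKO replicate 2, and that from *Dnmt1*-/- was −1.23 without *Dnmt1*-/- replicate 2 and −1.29 without TKO replicate 2, all without a call. With the arrays compared alone both had an adjusted p of 0.14. Before that, between day 0 and 4, *Lamc1* fell by 1.13 in *Dnmt1*-/- cells (SE 0.22, adjusted p = 0.006), a call lost without *Dnmt1*-/- day 0 replicate 1 (−1.03, adjusted p = 0.052). The wt change of −0.97 (adjusted p = 0.014) stayed short of 2-fold.

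Genes of parietal endoderm, the layer that secretes laminin-111, had the same order of genotypes at day 16 as its chains, but not the dip of *Lama1* and *Lamc1* at day 4. Of 6 such genes, *Sparc* among them, which is also a basement membrane gene, 6 rose from day 0 to 16 in *Dnmt1*-/- cells, 3 in wt and 1 in TKO, where 6.90%, 10.8% and 2.50% of all probe sets were called in either direction. Their median change was 2.09, 1.19 and 0.68, beside −0.09, −0.07 and −0.01 over all probe sets. The mean level of the 6 was 6.54 to 6.95 on all ESC arrays, and at day 4 it was 7.40 to 7.48 in wt, 7.33 to 7.97 in *Dnmt1*-/- and 7.41 to 7.43 in TKO. Their mean level at day 16 was 8.50 to 8.67 on the *Dnmt1*-/- arrays, 7.95 to 8.43 in wt and 7.23 to 7.31 in TKO. Of the 6, 3 (*Sparc*, *Plat* and *Pth1r*) were lower in TKO than in *Dnmt1*-/- EBs of day 16, where 0.941% of all probe sets were lower. *Pth1r*, the receptor for parathyroid hormone-related protein, gave 9.42 and 9.0 in *Dnmt1*-/-, 7.54 and 8.29 in wt and 7.30 and 7.20 in TKO EBs of day 16. Of 7 primitive endoderm genes, 4 (*Gata4*, *Gata6*, *Sox17* and *Pdgfra*) were lower in TKO than in *Dnmt1*-/- EBs, and the mean was 8.76 to 8.77 in *Dnmt1*-/-, 8.13 to 8.33 in wt and 7.34 to 7.58 in TKO. The mean of 7 visceral endoderm genes, *Afp* among them, was 10.48 to 10.96, 9.63 to 10.19 and 9.03 to 9.70. The part of these cells in the laminin differences was not tested.

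**Figure D2:**
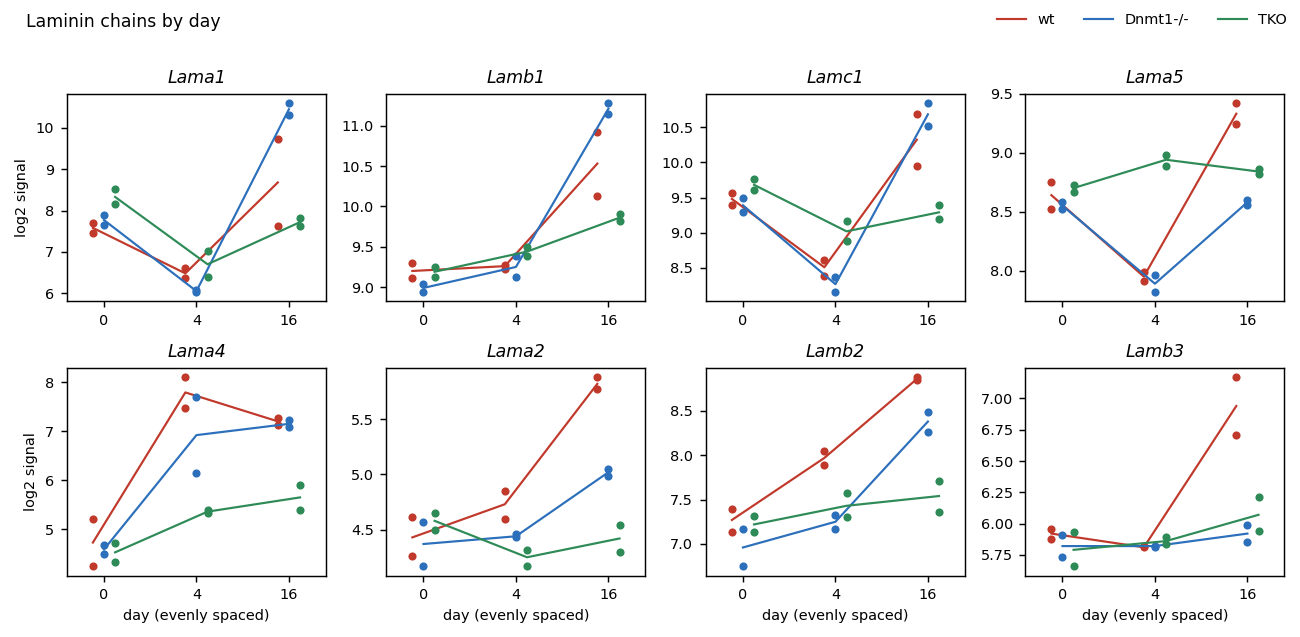
Log2 signal (vertical axes, which do not start at 0) of 8 laminin chains at day 0, 4 and 16, evenly spaced, with a point per array and lines through the means of 2 arrays of wt (red), *Dnmt1*-/- (blue) and TKO (green). *Lama1*, *Lamb1* and *Lamc1* end highest in *Dnmt1*-/- EBs, *Lama2*, *Lamb2* and *Lamb3* end highest in wt EBs, and *Lama4* is lowest in TKO EBs at day 4 and day 16.

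*Lama5* encodes the alpha chain of laminin-511, a laminin of the epiblast and of most mature epithelia. It gave 8.75 and 8.52 in wt ESCs, 7.99 and 7.91 at day 4, and 9.24 and 9.42 at day 16. Loss of Dnmt1 alone gave 8.52 and 8.58, 7.96 and 7.82, and 8.60 and 8.56. TKO cells stayed between 8.67 and 8.98 on all 6 arrays, without the dip at day 4 seen in both other lines. *Lama5* rose from day 4 to 16 in wt EBs (1.38, SE 0.12, adjusted p = 1.4e-05), and the change in TKO lay below that of wt (difference −1.48, SE 0.17, adjusted p = 0.00046). Both calls held without any single array. At day 4 it was higher in TKO than in *Dnmt1*-/- EBs (1.04, SE 0.12, adjusted p = 0.0028) and 0.99 above wt (adjusted p = 0.00047), just short of 2-fold. The first call was lost without *Dnmt1*-/- replicate 2 (0.97), without TKO replicate 2 (0.99) and with the arrays compared alone (adjusted p = 0.22).

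*Lama4*, the alpha chain of vascular and mesenchymal laminins, rose early. It gave 5.21 and 4.25 in wt ESCs, 8.10 and 7.47 at day 4, and 7.27 and 7.12 at day 16. The *Dnmt1*-/- values were 4.68 and 4.49, 6.14 and 7.70, and 7.22 and 7.08, and TKO cells 4.73 and 4.34, 5.33 and 5.40, and 5.91 and 5.39. The TKO arrays lay below those of wt at day 4 and at day 16, while *Dnmt1*-/- and wt overlapped at both days. *Lama4* rose by 3.06 from day 0 to 4 in wt (SE 0.43, adjusted p = 0.00071) and by 2.34 in *Dnmt1*-/- cells (SE 0.43, adjusted p = 0.004), with 0.83 in TKO (adjusted p = 0.34). It was lower in TKO than in wt EBs at day 4 (−2.42, SE 0.43, adjusted p = 0.0049) and day 16 (−1.54, SE 0.43, adjusted p = 0.031).

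Some of these *Lama4* calls depended on single arrays. The day 4 difference lost its call without wt replicate 1 (−2.10, adjusted p = 0.063). The day 16 difference lost it without any of the 4 arrays compared (−1.28 to −1.81, adjusted p of 0.053 to 0.20) and under the false discovery rate over all comparisons (0.053). The rise in *Dnmt1*-/- missed the threshold with the arrays compared alone (adjusted p = 0.082). The mean of 8 endothelial genes, *Pecam1* and *Cdh5* among them, was 6.88 to 7.54 in wt, 7.12 to 7.27 in *Dnmt1*-/- and 6.85 to 7.06 in TKO EBs of day 16, and its part in the *Lama4* values was not tested.

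*Lama2*, *Lamb2* and *Lamb3* were highest in wt EBs of day 16. *Lama2*, the alpha chain of muscle and nerve laminins, gave 5.77 and 5.88 there, against 4.26 to 4.85 on the other wt arrays. *Dnmt1*-/- arrays lay between 4.17 and 4.57 before day 16 and at 4.99 and 5.05 then, and TKO arrays stayed between 4.17 and 4.65 throughout. *Lama2* thus ranked wt, *Dnmt1*-/- and TKO at day 16 without overlap, though the probe set is dim. It rose from day 4 to 16 in wt (1.10, SE 0.17, adjusted p = 0.00091, but 0.98 without wt day 4 replicate 1). It was lower in TKO than in wt EBs of day 16 (−1.40, SE 0.17, adjusted p = 0.00013), and the *Dnmt1*-/- difference of −0.81 (adjusted p = 0.014) was short of 2-fold. The change from day 0 to 16 in TKO lay below that of wt (difference −1.54, SE 0.24, adjusted p = 0.0029), and this and the day 16 difference held without any single array.

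*Lamb2*, the beta chain that takes the place of *Lamb1* in many mature basement membranes, gave 7.39 and 7.14, 8.05 and 7.89, and 8.88 and 8.85 in wt at day 0, 4 and 16. Its *Dnmt1*-/- signals were 7.17 and 6.75, 7.17 and 7.33, and 8.49 and 8.26, and TKO cells 7.13 and 7.32, 7.30 and 7.57, and 7.71 and 7.36. It climbed in wt and *Dnmt1*-/- EBs, and the 3 genotypes did not overlap at day 16. *Lamb2* rose by 1.60 from day 0 to 16 in wt (SE 0.18, adjusted p = 4.8e-05) and by 1.42 in *Dnmt1*-/- cells (SE 0.18, adjusted p = 0.00024), with 0.32 in TKO (adjusted p = 0.45). From day 4 alone the *Dnmt1*-/- rise was 1.13 (adjusted p = 0.0031, but 0.067 with the arrays compared alone). In TKO EBs of day 16 it was lower than in wt (−1.33, SE 0.18, adjusted p = 0.00039), without dependence on a single array, and its change from day 0 was smaller (difference −1.28, SE 0.26, adjusted p = 0.013). The latter call was lost without wt day 0 replicate 2 (−1.15) or replicate 2 of TKO day 0 (−1.19) or day 16 (−1.11), and with the arrays compared alone (adjusted p = 0.054).

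*Lamb3*, the beta chain of laminin-332 in stratified epithelia, gave 7.17 and 6.71 in wt EBs of day 16 and 5.66 to 6.21 on the 16 other arrays. It rose from day 4 to 16 in wt (1.12, SE 0.16, adjusted p = 0.00062), a call lost without wt day 16 replicate 1 (0.89) and with the arrays compared alone (adjusted p = 0.059). The rise since day 0 was 1.02 (adjusted p = 0.00058), and 0.98 without wt day 0 replicate 1, 0.79 without wt day 16 replicate 1, 0.96 after subtraction of array medians and 0.94 after quantile normalization. *Lamb3* was lower in *Dnmt1*-/- than in wt EBs of day 16 (−1.02, SE 0.16, adjusted p = 0.0025), with −0.86 in TKO (adjusted p = 0.0036). The *Dnmt1*-/- call was lost without wt replicate 1 (−0.79), without *Dnmt1*-/- replicate 2 (−0.95), after subtraction of array medians or quantile normalization (−0.98 in both) and with the arrays compared alone (adjusted p = 0.14). *Krt5*, a keratin of basal epidermal cells, was the 1 of 7 genes of stratified epithelium lower in each mutant than in wt EBs of day 16, with 8.84 and 7.49 in wt, 6.31 and 6.65 in *Dnmt1*-/- and 5.26 and 6.13 in TKO, and the part of such cells was not tested. Of all probe sets 1.36% were lower in *Dnmt1*-/- and 3.43% in TKO. The other laminin genes, *Lama3*, the alpha chain of laminin-332, and *Lamc3*, were called in none of the 18 comparisons and ranged over 0.863 and 0.823 log2 units across all arrays.

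*Itga3* and *Itga6* encode alpha subunits of laminin receptors, with beta 1 as the usual partner and beta 4 as a second partner of alpha 6. Both dipped at day 4 in wt EBs and came back by day 16. *Itga6* gave 8.88 and 8.65 in wt ESCs, 7.23 and 6.55 at day 4, and 8.66 and 8.38 at day 16. The *Dnmt1*-/- arrays read 8.68 and 8.64, 7.59 and 7.08, and 8.64 and 8.84, whereas all 6 TKO arrays lay between 8.66 and 8.95. At day 4 both TKO arrays therefore lay above those of both other lines, which overlapped.

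*Itga6* fell by 1.87 from day 0 to 4 in wt (SE 0.22, adjusted p = 0.00022) and by 1.32 in *Dnmt1*-/- cells (SE 0.22, adjusted p = 0.0023), with −0.08 in TKO (adjusted p = 0.91). It rose from day 4 to 16 by 1.63 in wt (SE 0.22, adjusted p = 0.00039) and by 1.41 in *Dnmt1*-/- EBs (SE 0.22, adjusted p = 0.0025), the latter not with the arrays compared alone (adjusted p = 0.075). In TKO EBs of day 4 *Itga6* was higher than in wt (1.83, SE 0.22, adjusted p = 0.00037), a 3.56-fold difference that held without any single array, and than in *Dnmt1*-/- EBs (1.39, SE 0.22, adjusted p = 0.011). The latter call was lost without *Dnmt1*-/- replicate 2 (1.13), without TKO replicate 1 or 2 (1.45 and 1.32) and with the arrays compared alone (adjusted p = 0.25).

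The *Itga6* changes themselves differed between TKO and wt. From day 0 to 4 the difference was 1.80 (SE 0.31, adjusted p = 0.017) and from day 4 to 16 it was −1.50 (SE 0.31, adjusted p = 0.021). The first was lost without wt day 0 replicate 1 (1.68) or any TKO array of day 0 or 4 (1.71 to 1.88, adjusted p of 0.050 to 0.068). The second was lost without wt day 4 replicate 2 (−1.16), wt day 16 replicate 1 (−1.35), either TKO array of day 4 (−1.56 and −1.43) or TKO day 16 replicate 2 (−1.41). With the arrays compared alone the adjusted p was 0.061 and 0.10. At day 4 the pluripotency genes were higher in TKO too, at a mean of 9.11 to 9.46 in TKO, 7.65 to 8.78 in *Dnmt1*-/- and 7.47 to 7.72 in wt EBs, and their part was not tested.

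*Itga3* was more variable. It gave 9.37 and 8.01 in wt ESCs, 6.62 and 6.27 at day 4, and 8.83 and 8.40 at day 16. Signals in *Dnmt1*-/- cells were 7.56 and 7.04, 7.13 and 6.56, and 8.72 and 8.42, and TKO cells 7.23 and 7.08, 7.87 and 7.82, and 8.13 and 7.61. Both mutants lay below wt in ESCs without a call (−1.39 and −1.53, adjusted p = 0.27 and 0.11). *Itga3* fell by 2.24 from day 0 to 4 in wt (SE 0.37, adjusted p = 0.0022, but 0.058 with the arrays compared alone) and rose by 2.17 from day 4 to 16 (SE 0.37, adjusted p = 0.0018). It rose by 1.73 from day 4 to 16 in *Dnmt1*-/- EBs (SE 0.37, adjusted p = 0.017), a call lost without *Dnmt1*-/- day 4 replicate 2 (1.44) or replicate 1 or 2 of day 16 (1.58 and 1.87) and with the arrays compared alone (adjusted p = 0.061).

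Between day 0 and 16 *Itga3* rose in *Dnmt1*-/- cells (1.27, SE 0.37, adjusted p = 0.034), a call lost without any of the 4 arrays compared (1.01 to 1.53, adjusted p of 0.050 to 0.21), under the false discovery rate over all comparisons (0.067) and after subtraction of array medians (0.050). The difference of *Itga3* between TKO and wt EBs of day 4 was 1.39 (SE 0.37, adjusted p = 0.048). Its call was lost without any array but those of wt ESCs (1.22 to 1.57, adjusted p of 0.050 to 0.22) and after subtraction of array medians (0.064). The change from day 0 to 4 differed between TKO and wt by 2.93 (SE 0.52, adjusted p = 0.019) and that from day 4 to 16 by −2.14 (SE 0.52, adjusted p = 0.044). The first was lost without wt day 4 replicate 2 (2.75), any TKO array of day 0 or 4 (2.85 to 3.01) and with the arrays compared alone (adjusted p = 0.061). The second was lost without any single array but those of wt day 0 and *Dnmt1*-/- day 4 (−1.88 to −2.40), under the false discovery rate over all comparisons (0.083) and after subtraction of array medians (0.060).

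*Itgb4*, the partner of alpha 6 in hemidesmosomes, gave 7.55 and 7.16 in wt EBs of day 16, against 6.08 to 6.54 on the other wt arrays and 5.77 to 6.70 in both mutants. It rose from day 4 to 16 in wt (1.24, SE 0.18, adjusted p = 0.00053) without dependence on a single array. *Dnmt1*-/- EBs showed 0.79 (adjusted p = 0.021) and TKO EBs 0.40 (adjusted p = 0.31). *Itga7*, a laminin receptor subunit of muscle, was called in none of the 18 comparisons and ranged over 1.02 units.

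*Itgb1*, which pairs with most alpha subunits that bind laminin, collagen or fibronectin, was lower in the mutants at every day. It gave 10.37 and 10.27 in wt ESCs, 10.84 and 10.84 at day 4, and 11.31 and 11.37 at day 16. Without Dnmt1 it gave 9.89 and 9.78, 10.49 and 10.64, and 10.64 and 10.78, and TKO cells 9.68 and 9.67, 10.22 and 10.25, and 10.26 and 9.86. The genotypes did not overlap on any day, in the order wt, *Dnmt1*-/- and TKO. Against wt, *Dnmt1*-/- differed by −0.48, −0.28 and −0.63 at day 0, 4 and 16 (adjusted p = 0.35, 0.92 and 0.017), none of them a call.

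TKO differed from wt in *Itgb1* by −0.65 at day 0 (adjusted p = 0.08), −0.61 at day 4 (adjusted p = 0.021) and −1.28 at day 16 (SE 0.14, adjusted p = 5.4e-05). The last is a 2.43-fold lower signal and was called whichever array was left out. In wt, *Itgb1* rose by 1.02 from day 0 to 16 (SE 0.14, adjusted p = 0.00016). This rise was just over 2-fold, and it was 0.97 without wt day 0 replicate 2, 0.99 without wt day 16 replicate 2 and 0.96 after subtraction of array medians. Over the same days *Itgb1* showed 0.88 in *Dnmt1*-/- (adjusted p = 0.00094) and 0.39 in TKO cells (adjusted p = 0.15).

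*Itga1*, the alpha subunit of a collagen IV and collagen I receptor, peaked at day 4 in TKO EBs. It gave 5.91 and 5.16, 5.40 and 5.41, and 7.26 and 6.41 in wt at day 0, 4 and 16. The values of *Dnmt1*-/- cells were 5.36 and 5.31, 6.45 and 5.19, and 6.54 and 6.29, and TKO cells 5.11 and 4.93, 7.48 and 7.20, and 6.11 and 5.65. The TKO arrays of day 4 were above all *Dnmt1*-/- arrays and above all wt arrays but replicate 1 of day 16, which lay between them. *Itga1* rose by 2.32 from day 0 to 4 in TKO (SE 0.38, adjusted p = 0.0032) and by 1.43 from day 4 to 16 in wt (SE 0.38, adjusted p = 0.024). TKO EBs of day 4 had more of it than wt (1.94, SE 0.38, adjusted p = 0.0091), and from day 4 to 16 TKO showed −1.46 (adjusted p = 0.066).

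The changes of *Itga1* differed between TKO and wt by 2.45 from day 0 to 4 (SE 0.54, adjusted p = 0.044) and by −2.89 from day 4 to 16 (SE 0.54, adjusted p = 0.01). The rise in TKO held without any single array, and the other calls did not. The wt rise from day 0 to 16 (1.30, adjusted p = 0.024) was lost without wt day 0 replicate 2 (0.92) or wt day 16 replicate 1 (0.88), under the false discovery rate over all comparisons (0.067) and with the arrays compared alone (0.077). The wt rise from day 4 was lost without wt day 4 replicate 1 (1.43, adjusted p = 0.10) or 2 (1.44), without wt day 16 replicate 1 (1.01) and with the arrays compared alone (adjusted p = 0.069). The day 4 difference was lost without wt or TKO replicate 1 (1.93 and 1.79). The difference from day 0 to 4 was lost without any array but wt day 0 replicate 2 and those of wt day 16 and *Dnmt1*-/- day 4 (2.07 to 2.59), under the false discovery rate over all comparisons (0.050) and after subtraction of array medians (0.053). That from day 4 to 16 was lost without TKO day 4 replicate 1 (−2.75) or TKO day 16 replicate 2 (−2.66). Of the other collagen-binding subunits, *Itga2*, *Itga10* and *Itga11* were called in none of the 18 comparisons and ranged over 1.30, 0.679 and 0.540 units.

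*Itga8*, whose product pairs with beta 1 and binds nephronectin and fibronectin, separated TKO from wt at day 16. It gave 6.28 and 5.43 in wt ESCs, 6.21 and 6.75 at day 4, and 7.90 and 7.41 at day 16. Among *Dnmt1*-/- arrays it read 5.30 and 5.29, 7.36 and 6.58, and 6.91 and 6.70, and TKO cells 4.94 and 4.96, 6.57 and 6.75, and 5.61 and 5.47. At day 4 the genotypes overlapped, and at day 16 they did not. *Itga8* rose from day 0 to 4 by 1.68 in *Dnmt1*-/- (SE 0.30, adjusted p = 0.0033) and 1.71 in TKO cells (SE 0.30, adjusted p = 0.0048), and from day 4 to 16 by 1.18 in wt EBs (SE 0.30, adjusted p = 0.02).

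That wt rise of *Itga8* from day 4 to 16 was lost without wt day 4 replicate 1 (0.90), wt day 16 replicate 1 (0.93) and with the arrays compared alone (adjusted p = 0.088). In TKO EBs of day 16 *Itga8* was 4.33-fold lower than in wt (−2.12, SE 0.30, adjusted p = 0.00045), and its change from day 4 lay below that of wt (difference −2.30, SE 0.42, adjusted p = 0.0099). Both held without any single array, and the TKO change itself was −1.12 (adjusted p = 0.074). Nephronectin itself (*Npnt*) rose from day 4 to 16 in wt EBs (1.45, adjusted p = 0.00021), at 7.69 and 7.10 in wt, 6.83 and 6.64 in *Dnmt1*-/- and 6.57 and 6.37 in TKO EBs of day 16, without a call between genotypes.

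*Itgav*, the alpha subunit that pairs with beta 3, 5, 6 and 8 to bind vitronectin, fibronectin or latent TGF-beta, rose in EBs of wt and *Dnmt1*-/-. It gave 8.12 and 8.11 at day 4 and 9.28 and 9.25 at day 16 in wt, 8.10 and 8.26 and then 9.35 and 9.19 in *Dnmt1*-/-, and 8.25 and 8.35 and then 8.82 and 8.49 in TKO EBs. All ESC arrays lay between 7.45 and 8.01. The rise from day 4 to 16 was 1.15 in wt (SE 0.17, adjusted p = 0.00077) and 1.09 in *Dnmt1*-/- EBs (SE 0.17, adjusted p = 0.0025, but 0.063 with the arrays compared alone). At day 16 TKO EBs differed from wt by −0.61 (adjusted p = 0.034), short of 2-fold, and *Dnmt1*-/- EBs by 0.00 (adjusted p = 1).

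*Itgb3* was the only one of the 37 probe sets to rise from day 4 to 16 in TKO EBs. It pairs with alpha v in many cells and with alpha IIb on platelets. Its signals were 6.02 and 5.92, 6.42 and 6.0, and 7.52 and 7.72 in wt at day 0, 4 and 16. In *Dnmt1*-/- cells they were 6.41 and 6.33, 6.30 and 7.06, and 7.90 and 7.97, and in TKO cells 6.41 and 6.30, 5.86 and 6.14, and 8.14 and 8.10. All arrays of day 16 lay above all earlier ones, and TKO was highest. From day 4 to 16 *Itgb3* rose by 2.12 in TKO (SE 0.22, adjusted p = 0.00062), 1.41 in wt (SE 0.22, adjusted p = 0.00091) and 1.26 in *Dnmt1*-/- EBs (SE 0.22, adjusted p = 0.0047).

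The *Itgb3* rises in TKO and wt held without any single array. That in *Dnmt1*-/- was lost without *Dnmt1*-/- day 4 replicate 1 (0.88) and with the arrays compared alone (adjusted p = 0.13). At day 16 TKO differed from wt by 0.50 (adjusted p = 0.17), without a call. *Pf4*, a platelet chemokine, was the 1 of 4 measured megakaryocyte genes lower in each mutant than in wt EBs of day 16, with 7.94 and 7.39 in wt, 6.54 and 6.59 in *Dnmt1*-/- and 5.72 and 5.06 in TKO EBs. Of all probe sets 1.36% were lower in *Dnmt1*-/- and 3.43% in TKO. *Itga2b*, the platelet partner of beta 3, was called in none of the 18 comparisons, with 6.67 and 6.37 in wt, 6.65 and 6.62 in *Dnmt1*-/- and 6.46 and 5.99 in TKO EBs of day 16.

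*Itgb6* and *Itgb8*, beta subunits of receptors that activate latent TGF-beta, ended highest in wt. *Itgb6* gave 6.10 and 6.16 in wt, 5.12 and 4.83 in *Dnmt1*-/- and 4.33 and 4.33 in TKO EBs of day 16, and 3.61 to 4.27 on the 12 earlier arrays. *Itgb8* gave 7.24 and 7.32, 5.89 and 6.21, and 5.76 and 5.75 at day 16. For *Itgb8* the earlier arrays ran from 5.52 to 6.30 in wt, 5.14 to 5.90 in *Dnmt1*-/- and 4.98 to 6.19 in TKO. In both genes the wt arrays of day 16 stood above all others.

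*Itgb6* rose from day 4 to 16 in wt by 2.03 (SE 0.20, adjusted p = 3.2e-05) and *Itgb8* by 1.07 (SE 0.18, adjusted p = 0.0016, but 0.97 without wt day 4 replicate 2). In TKO EBs of day 16 *Itgb6* was lower than in wt (−1.80, SE 0.20, adjusted p = 7.3e-05), with a probe set that is dim and a TKO signal (4.33 and 4.33) close to that of the 12 earlier arrays (3.61 to 4.27), and *Itgb8* was 2.87-fold lower (−1.52, SE 0.18, adjusted p = 0.00011). In *Dnmt1*-/- EBs both were lower than in wt too, with −1.16 (SE 0.20, adjusted p = 0.0042) and −1.23 (SE 0.18, adjusted p = 0.0012). The TKO differences held without any single array. The *Dnmt1*-/- difference of *Itgb6* was lost without *Dnmt1*-/- replicate 2 (−1.01, adjusted p = 0.054), and with the arrays compared alone neither *Dnmt1*-/- difference passed (adjusted p = 0.068 and 0.062).

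The change from day 4 to 16 differed between TKO and wt by −1.46 for *Itgb6* (SE 0.28, adjusted p = 0.014) and −1.39 for *Itgb8* (SE 0.25, adjusted p = 0.0093). The *Itgb6* call was lost without wt day 4 replicate 1 (−1.29) or TKO day 4 replicate 1 (−1.38), and that of *Itgb8* without TKO day 4 replicate 2 (−1.28). The *Itgb6* change since day 0 differed by −1.95 (SE 0.28, adjusted p = 0.0019) without such dependence. *Dnmt1*-/- cells themselves showed a rise of *Itgb6* from day 0 to 16 (1.13, SE 0.20, adjusted p = 0.0021), lost without replicate 1 of *Dnmt1*-/- day 0 (0.94) or day 16 (0.99).

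*Itgb5*, the beta subunit of a vitronectin receptor, gave 8.41 and 8.10, 9.34 and 9.28, and 9.31 and 9.46 in wt at day 0, 4 and 16. For *Dnmt1*-/- these were 8.41 and 8.50, 8.86 and 9.07, and 8.97 and 8.85, and TKO cells 8.28 and 8.0, 9.19 and 9.22, and 8.62 and 8.25. TKO lay just under wt at day 4 and under both other lines at day 16. *Itgb5* rose from day 0 to 4 by 1.05 in wt (SE 0.16, adjusted p = 0.0014) and 1.07 in TKO cells (SE 0.16, adjusted p = 0.0021). These were 0.89 without wt day 0 replicate 2, 0.93 without TKO day 0 replicate 2 and, for TKO, 0.99 after quantile normalization. The wt rise to day 16 was 1.13 (adjusted p = 0.00026), and 0.97 without wt day 0 replicate 2. The day 16 difference of TKO from wt was −0.95 (adjusted p = 0.0018), just short of 2-fold. *Itga5*, the fibronectin receptor subunit that pairs with beta 1, was called in none of the 18 comparisons and ranged over 1.01 units.

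**Figure D3:**
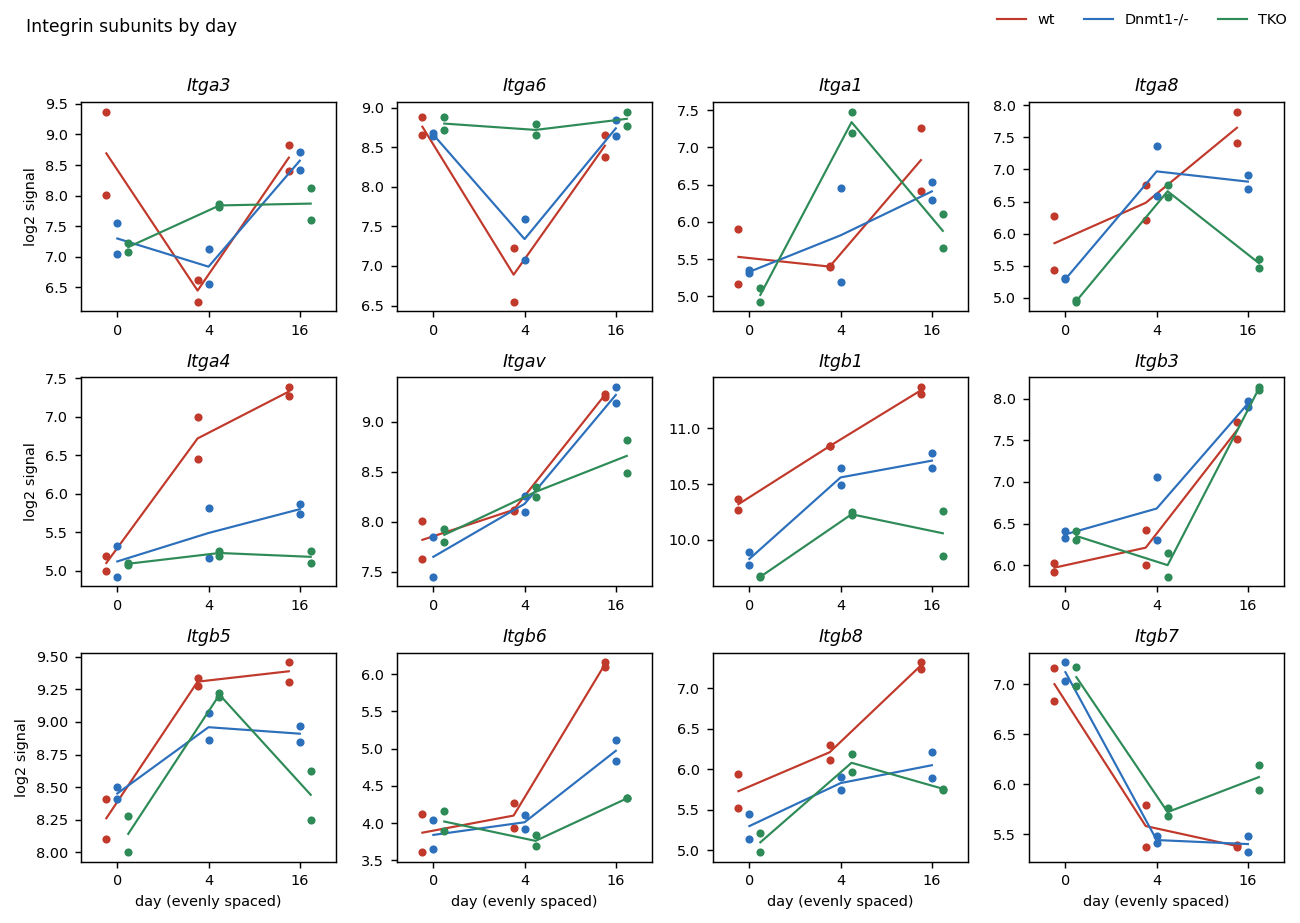
Log2 signal (vertical axes, which do not start at 0) of 12 integrin subunits at day 0, 4 and 16, evenly spaced, with a point per array and lines through the means of 2 arrays of wt (red), *Dnmt1*-/- (blue) and TKO (green). *Itga6* stays level in TKO and dips at day 4 in both other lines, *Itga4*, *Itgb1*, *Itgb6* and *Itgb8* end in the order wt, *Dnmt1*-/- and TKO, and *Itgb3* rises late in all 3 genotypes.

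*Itga4* was the member with the largest difference between TKO and wt EBs of day 16. Its product pairs with beta 1 or beta 7 and binds VCAM-1 and fibronectin on blood, muscle and neural crest cells. It gave 5.0 and 5.19 in wt ESCs, 7.0 and 6.45 at day 4, and 7.27 and 7.39 at day 16. In *Dnmt1*-/- cells the signals were 4.92 and 5.32, 5.17 and 5.81, and 5.87 and 5.74, and the TKO arrays stayed between 5.08 and 5.26. From day 4 on wt lay above both mutants without overlap.

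*Itga4* rose by 1.63 from day 0 to 4 in wt (SE 0.22, adjusted p = 0.00064), with 0.37 in *Dnmt1*-/- (adjusted p = 0.41) and 0.14 in TKO (adjusted p = 0.81). It was 4.46-fold lower in TKO (−2.16, SE 0.22, adjusted p = 3.9e-05) and 2.89-fold lower in *Dnmt1*-/- than in wt EBs of day 16 (−1.53, SE 0.22, adjusted p = 0.0012). At day 4 the differences were −1.50 in TKO (SE 0.22, adjusted p = 0.0017) and −1.23 in *Dnmt1*-/- (SE 0.22, adjusted p = 0.019). The day 16 calls and the TKO call of day 4 held without any single array. The *Dnmt1*-/- call of day 4 was lost without wt or *Dnmt1*-/- replicate 1 (−0.96 and −0.91) and with the arrays compared alone (adjusted p = 0.59).

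The change of *Itga4* from day 0 to 16 was smaller than in wt in TKO (difference −2.15, SE 0.32, adjusted p = 0.0022) and in *Dnmt1*-/- (−1.55, SE 0.32, adjusted p = 0.034), and that from day 0 to 4 was smaller in TKO (−1.49, SE 0.32, adjusted p = 0.038). The first held without any single array. The second was lost without any array of day 0 or 16 of these lines or of TKO day 0 or 4 (−1.35 to −1.76, adjusted p of 0.050 to 0.16), and the last without any array but wt day 4 replicate 2 and those of *Dnmt1*-/- day 0 and 4 (−1.21 to −1.58). With the arrays compared alone their adjusted p was 0.066 and 0.061. *Vcam1*, which encodes the partner of alpha 4 on other cells, gave 8.28 and 7.91 in wt, 6.51 and 6.10 in *Dnmt1*-/- and 4.91 and 4.67 in TKO EBs of day 16. *Itga9*, the closest relative of alpha 4, was called in none of the 18 comparisons and ranged over 1.46 units.

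*Itgam* and *Itgb2* encode the subunits of the macrophage receptor Mac-1. *Itgam* gave 5.15 and 5.98 in wt EBs of day 16, 4.36 and 4.32 in *Dnmt1*-/- and 4.09 and 4.27 in TKO, and *Itgb2* gave 5.90 and 6.24, 5.13 and 5.51, and 5.0 and 4.99. In both genes the wt arrays of day 16 were the highest of all, and the *Itgam* probe set is dim. From day 4 to 16 in wt, *Itgam* rose by 1.53 (SE 0.23, adjusted p = 0.0007) and *Itgb2* by 1.13 (SE 0.17, adjusted p = 0.00089). *Itgam* was lower than in wt in EBs of day 16 of TKO (−1.38, SE 0.23, adjusted p = 0.0013) and *Dnmt1*-/- (−1.22, SE 0.23, adjusted p = 0.0064), and *Itgb2* was lower in TKO (−1.07, SE 0.17, adjusted p = 0.0012).

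Replicate 2 of wt day 16 carried much of the *Itgam* and *Itgb2* values. Without it the TKO and *Dnmt1*-/- differences of *Itgam* were −0.97 and −0.81, that of *Itgb2* −0.90, the rise of *Itgb2* 0.96 and the rise of *Itgam* from day 0 to 16 0.67 in place of 1.08, which also missed the threshold with the arrays compared alone (adjusted p = 0.067). The *Dnmt1*-/- difference of *Itgam* was lost without *Dnmt1*-/- replicate 2 as well (−1.20, adjusted p = 0.051). With the arrays compared alone, the wt rises had an adjusted p of 0.068 for *Itgam* and 0.052 for *Itgb2*, and the day 16 differences 0.079 and 0.18 for *Itgam* and 0.057 for *Itgb2*. The mean of *Itgam* went from 4.48 at day 0 to 5.56 at day 16 in wt and from 5.02 to 4.18 in TKO. This TKO change lay below that of wt (difference −1.93, SE 0.32, adjusted p = 0.004), a call that held without any single array. The change from day 4 to 16 lay below that of wt as well (−1.56, SE 0.32, adjusted p = 0.019). That call was lost without wt day 4 replicate 1 (−1.35), TKO day 4 replicate 1 or 2 (−1.65 and −1.47) or TKO day 16 replicate 1 (−1.47), and with the arrays compared alone (adjusted p = 0.14).

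Genes of macrophages and other myeloid cells moved in the same direction. Of 9 such genes 8 rose in wt EBs between day 4 and 16, 3 rose in *Dnmt1*-/- and 2 in TKO, where 3.94%, 2.39% and 0.794% of all probe sets rose. At day 16, 7 of 9 were lower than in wt in each mutant, *Ptprc* and *Csf1r* among them, with a median of −2.27 in TKO and −1.75 in *Dnmt1*-/- (0.05 and −0.03 over all probe sets). Of all probe sets 3.43% were lower in TKO and 1.36% in *Dnmt1*-/-. The mean level of the 9 genes was 7.26 to 7.42 in wt, 5.62 to 5.74 in *Dnmt1*-/- and 5.12 to 5.29 in TKO EBs of day 16, and 4.73 to 5.11 on all earlier arrays. *Ptprc*, which marks blood cells, gave 5.46 and 6.10, 4.36 and 4.69, and 4.19 and 4.68 at day 16. The part of such cells in the *Itgam*, *Itgb2* and *Itga4* values was not tested.

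*Itgb7*, the beta subunit of lymphocyte homing receptors, was the member that fell in every line on leaving the ESC state. It gave 6.83 to 7.22 on all ESC arrays, 5.37 to 5.79 at day 4, and 5.37 and 5.39 in wt, 5.32 and 5.48 in *Dnmt1*-/- and 5.94 and 6.19 in TKO EBs of day 16. It fell early, by 1.42 in wt (SE 0.17, adjusted p = 0.00023), 1.68 in *Dnmt1*-/- (SE 0.17, adjusted p = 0.00011) and 1.35 in TKO cells (SE 0.17, adjusted p = 0.0006) between day 0 and 4, and these calls held without any single array. In TKO it fell by 1.01 from day 0 to 16 (SE 0.17, adjusted p = 0.0049), lost without TKO day 0 replicate 2 (−0.91), TKO day 16 replicate 1 (−0.88) and with the arrays compared alone (adjusted p = 0.09). The leukocyte alpha subunits *Itgad* (both probe sets), *Itgae*, *Itgal* and *Itgax* were called in none of the 18 comparisons, and the widest range over all arrays was 1.71 (*Itgax*), the narrowest 0.897 (*Itgae*).

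**Figure D4:**
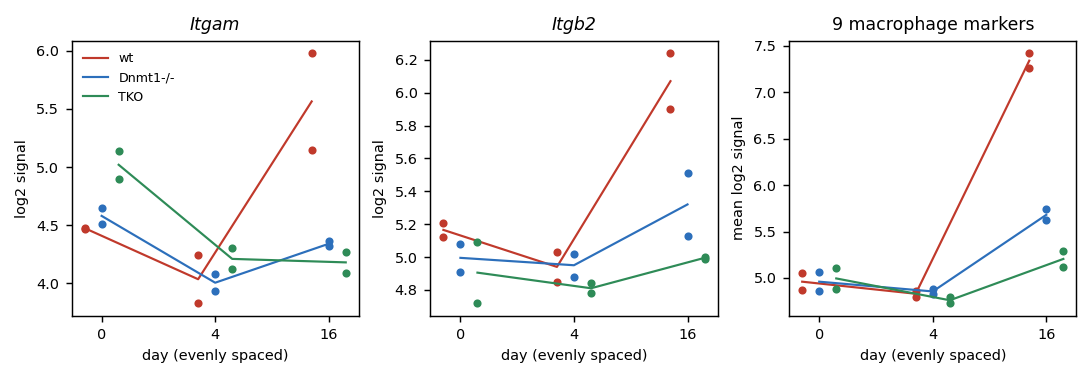
Log2 signal (vertical axes, which do not start at 0) of *Itgam* and *Itgb2* and mean log2 signal of 9 macrophage and myeloid genes at day 0, 4 and 16, evenly spaced, with a point per array and lines through the middle of the 2 arrays of wt (red), *Dnmt1*-/- (blue) and TKO (green). In the right panel the wt arrays of day 16 lie at 7.26 and 7.42, above *Dnmt1*-/- at 5.62 and 5.74 and TKO at 5.12 and 5.29.

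Across the 37 probe sets, 11 were lower in TKO than in wt EBs of day 16. These were the integrin subunits *Itga4*, *Itga8*, *Itgam*, *Itgb1*, *Itgb2*, *Itgb6* and *Itgb8* and the laminin chains *Lama2*, *Lama4*, *Lamb2* and *Lamc1*. Of them, 7 (*Itga4*, *Itga8*, *Itgb1*, *Itgb6*, *Itgb8*, *Lama2* and *Lamb2*) kept the call without any single array and in every alternative run that held their probe set. The run without dim probe sets left out *Itgb6* and *Lama2*. In *Dnmt1*-/- EBs *Itga4*, *Itgam*, *Itgb6*, *Itgb8* and *Lamb3* were lower than in wt. Of these 5 calls, 2 (*Itga4* and *Itgb8*) held without any single array, and 1 (*Itga4*) held in every alternative run. The values of the 2 mutants side by side were −2.16 and −1.53 for *Itga4*, −1.80 and −1.16 for *Itgb6*, −1.52 and −1.23 for *Itgb8* and −1.38 and −1.22 for *Itgam* in TKO and *Dnmt1*-/-, both against the same wt arrays.

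**Figure D5:**
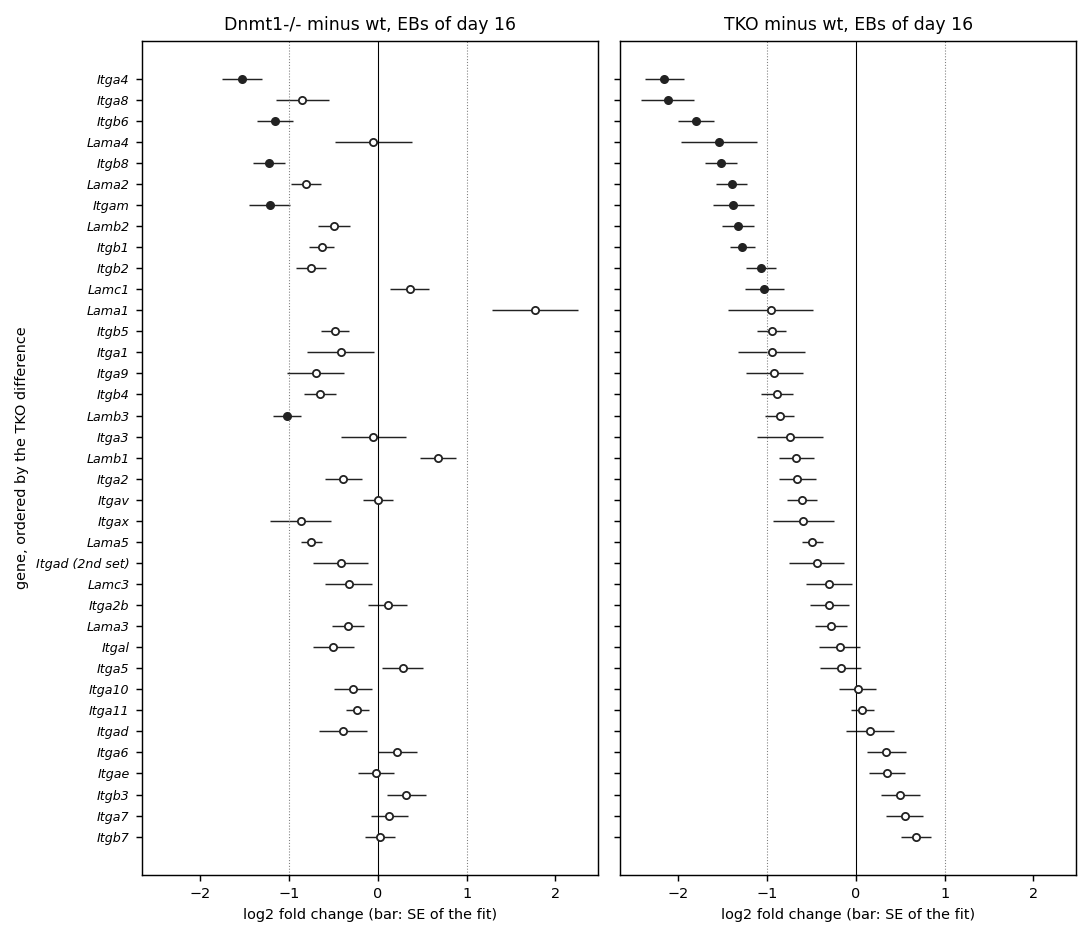
Log2 fold change against wt EBs of day 16 of the 37 laminin and integrin probe sets in *Dnmt1*-/- (left) and TKO EBs (right), with the SE of the fit as bars, filled points for calls and dotted lines at -1 and 1. In TKO the 11 calls lie between -2.16 and -1.03, and in *Dnmt1*-/- *Lama1* lies farthest to the right at 1.77 without a call.

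Mesenchymal genes differed still more at day 16. Of 9 genes of mesenchyme and smooth muscle, *Col1a1* among them, 8 were lower in TKO (median −4.36) and 5 in *Dnmt1*-/- than in wt EBs (median −1.85). Over all probe sets 3.43% were lower in TKO (median 0.05) and 1.36% in *Dnmt1*-/- (median −0.03). The mean level of the 9 genes was 10.44 to 10.46 in wt, 8.75 to 9.12 in *Dnmt1*-/- and 6.56 to 7.37 in TKO. The part of mesenchymal cells in the laminin and integrin differences, those of *Itga8*, *Lama2*, *Lama4* and *Lamb2* among them, was not tested.

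The partners of laminin in the basement membrane changed in part. Of 16 such genes, 4 rose from day 4 to 16 in wt (*Col4a1*, *Col4a2*, *Nid1* and *Sparc*), 5 in *Dnmt1*-/- and 1 (*Nid1*) in TKO EBs, and none fell in any line. Of all probe sets 3.94%, 2.39% and 0.794% rose. *Col4a1*, a collagen IV chain, gave 8.82 and 10.03 in wt, 10.12 and 10.15 in *Dnmt1*-/- and 8.26 and 7.98 in TKO EBs of day 16, the same order of means as *Lama1*. It was lower in TKO than in wt (−1.30, SE 0.29, adjusted p = 0.01) and than in *Dnmt1*-/- EBs (−2.02, SE 0.29, adjusted p = 0.0053). At day 16, 5 of 16 were lower and 1 (*Nid2*, nidogen 2) was higher in TKO than in wt, with a list median of −0.27. Over all probe sets 5.83% were called and 3.43% were lower, with a median of 0.05. *Nid2* fell from day 0 to 4 in wt (−1.50, SE 0.19, adjusted p = 0.00031) and was higher in TKO EBs of day 4 (1.31, SE 0.19, adjusted p = 0.0012), as *Itga6* was.

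Ligands of integrins other than laminin rose in larger numbers, and 3 of them (*Postn*, *Col1a1* and *Col1a2*) are mesenchymal genes too. Of 20 measured, 15 rose in wt EBs between day 4 and 16, 11 rose in *Dnmt1*-/- and 2 in TKO, with medians of 2.13, 1.59 and 0.46. Over all probe sets 3.94%, 2.39% and 0.794% rose, with medians of −0.08, −0.07 and 0.01. At day 16, 10 of the 20 were lower in TKO (median −1.39) and 6 in *Dnmt1*-/- (median −0.59) than in wt, and 0 were higher. Over all probe sets 3.43% were lower in TKO (median 0.05) and 1.36% in *Dnmt1*-/- (median −0.03). *Vtn*, vitronectin, gave 9.61 and 10.47 in wt, 7.98 and 6.97 in *Dnmt1*-/- and 5.11 and 5.28 in TKO EBs of day 16. *Postn*, periostin, gave 10.40 and 10.17, 8.81 and 8.06, and 6.42 and 4.47. *Fn1*, fibronectin, differed less, with 11.68 and 11.94, 11.32 and 11.32, and 10.95 and 10.79, and was not called between genotypes.

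Of 23 measured genes that link integrins to actin, 4 (*Fermt1*, *Lims2*, *Parva* and *Tns3*) rose from day 4 to 16 in wt (3.94% of all probe sets rose) and 0 in each mutant, with medians of 0.30 in wt, 0.31 in *Dnmt1*-/- and 0.09 in TKO beside −0.08, −0.07 and 0.01 over all probe sets, and 2 (*Parva* and *Flna*) were lower in TKO than in wt EBs of day 16 (3.43% of all probe sets were lower). *Parva*, parvin alpha of the complex of integrin-linked kinase, gave 9.68 and 9.48 in wt, 8.72 and 8.30 in *Dnmt1*-/- and 8.24 and 7.21 in TKO EBs. The list median of the TKO difference was −0.30. Among 10 other laminin receptors and dystroglycan genes, 2 were lower in each mutant than in wt EBs of day 16, *Sdc2* and *Sdc3* in TKO and *Bcam* and *Sdc3* in *Dnmt1*-/-. Of all probe sets 3.43% were lower in TKO and 1.36% in *Dnmt1*-/-. *Dag1*, dystroglycan, was called in no comparison, with 8.71 to 9.30 on all arrays.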

How the data were processed

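RNA of 18 samples was hybridized to Affymetrix Mouse Gene 1.0 ST arrays, 300 ng of RNA each per the labels. The authors deposited log2 values of 35512 probe sets, made with RMA per the submitters' processing notes, in a version not given in the sources used here. RMA brings all arrays to a common distribution, so a change of total RNA per cell is not seen, and the number of arrays limits the precision (median SE 0.203 for a change and 0.287 for a difference of changes). The values were used as deposited, with no further normalization or filter. Groups came from genotype and day in the labels.

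Symbols came from the platform annotation (1 symbol for 21789 probe sets, several for 1621, none for 12102). limma 3.58.1 in R 4.3.3 gave every SE and adjusted p, from a model of 9 group means with eBayes (9 residual and 3.32 prior degrees of freedom), 18 contrasts between days or genotypes and 9 differences of changes. The scripts were tested on simulated data. Values are given for members called in at least 1 of the 18 contrasts, for the laminin-111 chains and for *Itgb1*, and the rest by range. Of the 4 pathway and 9 marker lists, *Spp1*, *Fbn1*, *Ptk2* and 4 of 8 megakaryocyte genes, among others, were not analysed here. For lists, counts, medians and called genes of large change or that define a cell type are given. *Pth1r*, *Nid2*, *Npnt*, *Fn1*, *Parva* and *Dag1* were named after their values were seen. Members and lists were chosen with earlier results of these data known. Promoter sequences are RefSeq's (GRCm38.p6).

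Results were recomputed with the false discovery rate pooled over comparisons, subtraction of array medians, quantile normalization, the arrays compared alone, omission of the dimmest 30% of probe sets, the replicate number as a block, trend and robust variance, 1 probe set per gene, and each array left out in turn. The lists were not recomputed under them.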

Additional observations from a re-analysis of the deposited data

Results flagged for a closer look

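In 21 instances the change of a laminin or integrin probe set over time differed between genotypes by limma's test of the difference of changes, and 19 of them set TKO against wt. From day 0 to 4 the change in TKO minus that in wt was positive for *Itga1* (2.45), *Itga3* (2.93) and *Itga6* (1.80), and negative for *Itga4* (−1.49). *Itga3* and *Itga6* fell in wt and did not fall in TKO, so a positive difference is not always a larger change in size. From day 4 to 16 the difference of TKO from wt was negative for *Itga1* (−2.89), *Itga3* (−2.14), *Itga6* (−1.50), *Itga8* (−2.30), *Itgam* (−1.56), *Itgb6* (−1.46), *Itgb8* (−1.39), *Lama5* (−1.48) and *Lamc1* (−1.55). For *Lamc1* that of TKO from *Dnmt1*-/- was negative as well (−2.15). The means of *Itga1*, *Itga8*, *Itgam*, *Itgb8* and *Lama5* went down in TKO and up in wt over these days. In TKO the decrease was slight for *Itgam* (4.21 to 4.18) and *Lama5* (8.94 to 8.84). From day 0 to 16 the difference of TKO from wt was negative for *Itga4* (−2.15), *Itgam* (−1.93), *Itgb6* (−1.95), *Lama2* (−1.54), *Lamb2* (−1.28) and *Lamc1* (−1.23). That of *Dnmt1*-/- from wt was negative for *Itga4* (−1.55).

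Of these 21 differences, 6 kept the call without any single array, namely *Itga8* and *Lama5* from day 4 to 16 and *Itga4*, *Itgam*, *Itgb6* and *Lama2* from day 0 to 16, all in TKO against wt. The *Lamc1* difference of day 0 to 16 was lost without any array of day 0 or 16 of wt and TKO but wt day 16 replicate 1 (−0.87 to −1.33, the lowest in size without wt day 16 replicate 2), without either array of *Dnmt1*-/- day 0 or TKO day 4 (−1.23, adjusted p = 0.051 in each), under the false discovery rate over all comparisons (0.095) and with the arrays compared alone (0.14). Where the other calls are given with their genes above, the arrays or the range of values without them stand there. *Itga1*, *Itga3* and *Itga6* stand out in that their differences have one sign before day 4 and the other after it, and the arrays of day 4 enter both.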

How the results depend on the processing

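Of the 119 calls among the 37 probe sets, none was reversed in any alternative. The replicate block, trend and robust variance and 1 probe set per gene lost 0, and omission of the dimmest 30% of probe sets lost 0 of the 102 it could test. The false discovery rate over all comparisons lost 7, subtraction of array medians 7, quantile normalization 4, the arrays compared alone 40 and the omission of single arrays 54 (23 of 71 between days, 16 of 27 between genotypes, 15 of 21 differences of changes). Counts of called members that moved by over 1.5 times follow. Some alternatives use fewer arrays or probe sets, and otherwise the cause was not tested.

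With the arrays compared alone, 10 were called in wt and 3 in *Dnmt1*-/- from day 4 to 16, and 1 in TKO from day 0 to 16. That fit called 0 in *Dnmt1*-/- against wt and 0 in TKO against *Dnmt1*-/- at day 4, and 1 and 0 at day 16. For the differences of changes it called 1 from day 0 to 4 (TKO against wt), 0 from day 4 to 16 (TKO against *Dnmt1*-/-) and 0 from day 0 to 16 (*Dnmt1*-/- against wt). The false discovery rate over all comparisons called 3 in TKO from day 4 to 16 (*Itga1* and *Itga8*, lower, beside *Itgb3*), 1 in each mutant against wt in ESCs, and 3 differences of TKO from *Dnmt1*-/- in each of the changes from day 4 to 16 and day 0 to 16. Omission of dim probe sets called 2 in TKO from day 4 to 16, 2 and 2 for these differences and 3 for the change from day 0 to 16 of TKO against wt. With 1 probe set per gene, 3 were called in TKO from day 4 to 16, 5 in TKO against *Dnmt1*-/- at day 16, 1 and 3 in the changes from day 4 to 16 of *Dnmt1*-/- against wt and TKO against *Dnmt1*-/-, and 3 and 3 in those from day 0 to 16. Quantile normalization called 2 in the change from day 0 to 16 of *Dnmt1*-/- against wt.

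Replicate numbers are shared by the groups, and deviations of same-numbered arrays from their group means correlated at 0.04 to 0.50 over the 36 pairs of groups (median 0.27), over 0.1 in 32 but not in all. The labels do not tie a number to a shared culture or day, so the block was kept as an alternative. The replicate block called 3 in TKO from day 4 to 16, 1 in each mutant against wt in ESCs and 2 in the change from day 0 to 16 of *Dnmt1*-/- against wt.

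Without single arrays, the counts from day 0 to 4, day 4 to 16 and day 0 to 16 ran from 5 to 7, 13 to 17 and 13 to 17 in wt, 4 to 6, 7 to 8 and 9 to 12 in *Dnmt1*-/-, and 4 to 5, 1 to 3 and 1 to 2 in TKO. In ESCs, at day 4 and at day 16 they ran from 0 to 1, 0 to 1 and 2 to 6 for *Dnmt1*-/- against wt, 0 to 1, 3 to 5 and 9 to 14 for TKO against wt, and 0 to 0, 0 to 5 and 0 to 5 for TKO against *Dnmt1*-/-. For the changes from day 0 to 4, day 4 to 16 and day 0 to 16 they ran from 0 to 0, 0 to 3 and 0 to 3 for *Dnmt1*-/- against wt, 0 to 5, 4 to 10 and 4 to 8 for TKO against wt, and 0 to 1, 0 to 3 and 0 to 3 for TKO against *Dnmt1*-/-.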
